A study of Drosophila melanogaster with 6 samples.

Results

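Macroautophagy is the process by which a cell encloses part of its cytoplasm in a double membrane, the autophagosome, and delivers it to the lysosome for breakdown. In the fruit fly it is best known from the larval fat body, where starvation and the steroid hormone ecdysone turn it on, and in muscle it clears worn mitochondria and protein aggregates. The machinery works in steps, from a kinase complex that starts the process, through a lipid kinase complex that marks the membrane and a ubiquitin-like conjugation system that extends it, to the factors that tether the closed autophagosome to the lysosome. The transcripts of 10 core genes of these steps were followed in exercised and control larvae: Atg1, Atg13, Atg17 and Atg101 of initiation, Atg6 of nucleation, Atg9 and Atg18a of membrane supply, Atg16 and Atg8a of conjugation, and Epg5 of the late steps. They were chosen by symbol among the 17477 genes of the count table, and all 10 passed the low-count filter of edgeR, as did 9127 genes in all.

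The study asked which transcripts of larval muscle change after a bout of optogenetically driven contractions. Body wall muscle with the attached cuticle was dissected from Drosophila melanogaster larvae of mixed sex in the middle of the third instar, and polyA-selected RNA was sequenced from 3 control and 3 exercised libraries. Control larvae were w1118. Exercised larvae were OK6-Gal4bc > CsChrimbc, in which OK6-Gal4 drives a red-light-gated cation channel in motor neurons, both transgenic lines having been backcrossed to w1118. Both groups were kept overnight on food with all-trans retinal, the cofactor of the channel, and both received the 2 h light program in dilute sucrose, so that transgenes and contractions differ together between the groups and their effects cannot be told apart. OK6-Gal4 is also active in some CCAP neurons, which release neuropeptides, and how many larvae made up a library was not stated.

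Libraries held 19625425 to 23953341 counts. The white gene w, a marker carried by many transgenes, was at 0.0579 ± 0.0208 CPM (counts scaled to the TMM-adjusted library size, mean ± SD, n = 3) in control and 85.4 ± 39.2 CPM in exercised libraries, and no library went against its label. The 9 muscle markers found in the table summed to 131190 to 146857 CPM in every library. Transcripts of other tissues were present too: the sum of 9 fat body markers was 575, 446 and 3670 CPM in control replicates 1 to 3 and 4380, 4065 and 3429 CPM in exercised replicates 1 to 3. The sum of 6 hemocyte markers lay between 365 and 669.5 CPM, with overlapping groups, the sum of 6 epidermis markers was 1648 to 1759 CPM in control and 1930 to 2056 CPM in exercised libraries, and 5 midgut markers summed to less than 1 CPM in each library, with Jon99Ciii and alphaTry at 0 throughout. The epidermis markers did not move together: shot, Cad99C and ple overlapped between the groups. Ddc (46.9, 5.81 and 11.2 CPM in control against 214, 62.8 and 121 CPM in exercised libraries) and grh were higher without overlap. Cht5 was lower (37.5, 18.1 and 21.5 against 8.03, 14.8 and 14.6 CPM). The part of the epidermis transcripts, whose sums did not overlap between the groups, in the results on the core genes was not tested. Fits that bear on the fat body follow after the members. Sets of 3 values are given in the order of replicates 1, 2 and 3. In such bulk samples fewer cells of a type and less RNA per cell cannot be told apart.

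Of the 10 core autophagy genes, 7 were lower in exercised larvae, none was higher (also at an unadjusted p under 0.05, and with DESeq2 or limma-voom) and 3 did not pass (edgeR quasi-likelihood test, adjusted p under 0.05 over all 9127 genes). The lower ones were Atg17, Atg101, Atg6, Atg9, Atg18a, Atg16 and Epg5. Among all tested genes, 8.52% were lower and 10.3% higher by the same rule. Upper-quartile in place of TMM factors turned that split, from 936 genes higher and 778 lower to 773 higher and 1003 lower, and left 7 core genes lower. Of the lower core genes, Atg6 and Atg9 had a fitted change of at least 1.5-fold, and 5.42% of all tested genes passed as lower by at least that much. The median log2 fold change of the core genes was -0.44, and that of all tested genes was -0.015. CPM ranges of the groups did not overlap for 8 of the 10, all 8 lower in exercised larvae, and 19.4% of all tested genes were apart in that direction. Apart from Atg1 the changes were moderate, between -0.60 and 0.15 on the log2 scale. The call count depended on the libraries, with 4 core genes passing without control replicate 1, exercised replicate 1 or exercised replicate 3, 3 without control replicate 2 or control replicate 3, and 8 without exercised replicate 2.

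**Figure D1:**
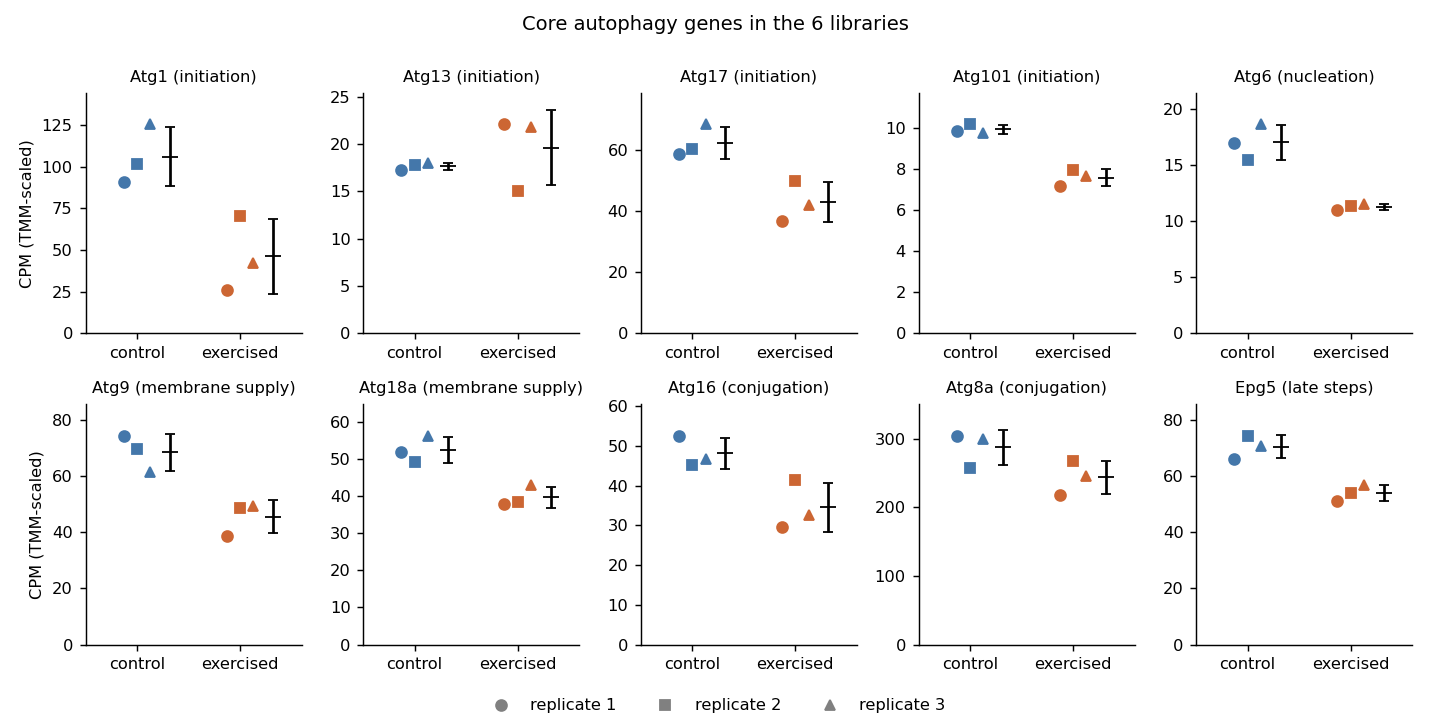
Expression of the 10 core autophagy genes, 1 panel per gene with its step in parentheses. The vertical axis is CPM of the TMM-scaled library and starts at 0, each symbol is 1 library (circle, square and triangle for replicates 1, 2 and 3), and the black bar is the mean ± SD of 3 libraries. All 3 exercised libraries lie below all 3 control libraries in 8 panels, and the groups overlap for Atg13 and Atg8a.

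Initiation rests on a complex of the serine/threonine kinase Atg1, its regulatory partner Atg13, the scaffold Atg17 (the fly ortholog of mammalian FIP200) and Atg101, which binds Atg13. Atg1 (FBgn0260945, minus strand of chromosome 3L, chr3L:12784429-12805116 of genome release 6) had the largest difference of the 10 genes. It stood at 91.1, 101 and 126 CPM in the controls against 25.9, 70.5 and 42.4 in the exercised libraries. Every exercised library was thus below every control library, but exercised replicate 2 was 2.73 times as high as exercised replicate 1. The Atg1 log2 fold change of -1.20 (standard error, SE, 0.38, 95% interval -2.14 to -0.25) missed the threshold in edgeR (adjusted p = 0.0870). Of all tested genes, 3.17% had a log2 fold change at or below that of Atg1. The call on Atg1 depended on the test and on 1 library: DESeq2 gave an adjusted p of 0.000562, limma-voom 0.0326, edgeR without robust estimation 0.0483 and edgeR without exercised replicate 2 0.0139, where the log2 fold change was -1.63.

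Atg17 (FBgn0037363, plus strand, chr3R:5669713-5679930) stood at 58.5, 60.0 and 68.2 CPM in the controls against 36.8, 49.8 and 41.8 in the exercised libraries. Its log2 fold change was -0.54 (SE 0.12, edgeR adjusted p = 0.0212), and the adjusted p rose to as much as 0.0821 without control replicate 2, control replicate 3 or exercised replicate 3. Atg101 (FBgn0030960, plus strand, chrX:18791668-18793517) was the least expressed member, with 150 to 241 counts per library, at 9.87, 10.2 and 9.78 CPM in the controls against 7.17, 7.96 and 7.67 in the exercised libraries. The replicates of each group lay close together. Atg101 fell by 0.39 (SE 0.10, edgeR adjusted p = 0.0390), but did not pass with DESeq2 (adjusted p = 0.0961), without the low-count filter (0.0806), or without any 1 library other than exercised replicate 2 (up to 0.127, without control replicate 2).

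Atg13 (FBgn0261108, plus strand, chr3R:8349815-8352817) stood at 17.2, 17.8 and 17.95 CPM in the controls against 22.1, 15.04 and 21.8 in the exercised libraries, so that exercised replicate 2 was below the controls and the other 2 exercised libraries above them. Its log2 fold change of 0.15 (95% interval -0.20 to 0.50) did not pass (edgeR adjusted p = 0.532). Without exercised replicate 2 it was 0.31, higher at an unadjusted p under 0.05 but not after adjustment (edgeR adjusted p = 0.0608). The ratio of Atg13 to each partner within a library was higher in all 3 exercised libraries than in any control library. The log2 ratio of Atg13 to Atg17 was -1.76, -1.75 and -1.93 in control and -0.74, -1.73 and -0.94 in exercised replicates 1 to 3, with exercised replicate 2 close to the controls. For all 3 partners the exact two-sided permutation test over 6 libraries gave p = 0.1 (0.1 also after adjustment over 4 ratios computed), the smallest p that 3 libraries against 3 can give. Each partner was itself lower without overlap, so the ratio of an unchanged gene to it tends to rise too. The 3 ratios also share Atg13 and are not independent. Per kilobase of exon, Atg1 made up 51.9, 53.8 and 57.8% of the summed level of the 4 transcripts in control replicates 1 to 3 and 26.8, 49.7 and 36.2% in exercised replicates 1 to 3. Atg13 made up 11.4 to 13.6% in control and 31.6, 14.6 and 25.6% in exercised replicates 1 to 3. The share of Atg17 was 20.7 to 21.9% in control and 23.1 to 25.1% in exercised libraries. That of Atg101 was 10.1 to 12.6% in control and 12.6 to 16.6% in exercised libraries. These are parts of the same sum, so a lower Atg1 by itself raises the shares of its partners.

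**Figure D2:**
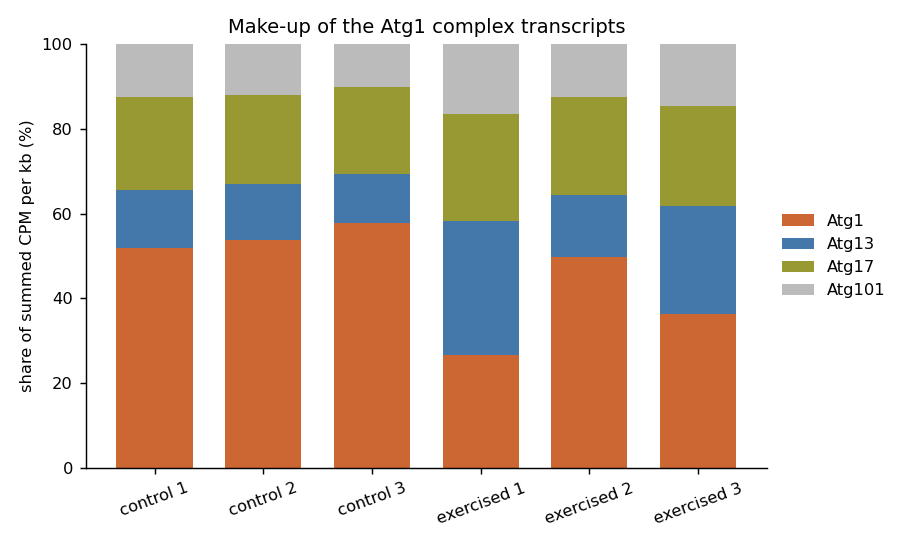
Share of Atg1, Atg13, Atg17 and Atg101 in their summed level (CPM per kilobase of exon, in percent, vertical axis from 0 to 100) in each of the 6 libraries. Atg1 takes 51.9 to 57.8% in control libraries and 26.8 to 49.7% in exercised libraries, and exercised replicate 2 is the exercised library closest to the controls.

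Atg6, the fly Beclin 1, works together with the Vps34 lipid kinase, which makes phosphatidylinositol 3-phosphate (PI3P) on the growing membrane. Atg6 (FBgn0264325, minus strand, chr3R:24049180-24050782) stood at 17.0, 15.5 and 18.6 CPM in the controls against 10.9, 11.3 and 11.5 in the exercised libraries. The exercised libraries were nearly equal and lay well below the lowest control. Its log2 fold change was -0.60 (SE 0.10, edgeR adjusted p = 0.00722), with adjusted p up to 0.0363 when any 1 library was left out, so that no single library decided the call. The other nucleation genes listed did not follow at this threshold: the kinase gene Pi3K59F (log2 fold change -0.16, adjusted p = 0.402), Vps15 (-0.35, 0.200), Atg14 (-0.021, 0.907) and Uvrag (0.24, 0.160) all failed the edgeR test, also at an unadjusted p under 0.05. Each of these 4 had a 95% interval that included 0, and the interval of Vps15 reached down to -0.75. Vps15 passed as lower without exercised replicate 2.

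Atg9 is a membrane-spanning protein that brings lipid vesicles to the site of formation, while Atg18a, of the WIPI family, binds PI3P there. Atg9 (FBgn0034110, plus strand, chr2R:16294400-16297232) stood at 74.5, 69.7 and 61.4 CPM in the controls against 38.9, 48.5 and 49.4 in the exercised libraries. The groups were apart. The log2 fold change of Atg9 was -0.59 (SE 0.12, edgeR adjusted p = 0.0133) and the gene passed with each library left out in turn, most narrowly at 0.0499 (without control replicate 2). Atg18a (FBgn0035850, plus strand, chr3L:8186857-8191118) stood at 51.9, 49.2 and 56.4 CPM in the controls against 38.0, 38.4 and 43.0 in the exercised libraries. It fell by 0.40 (SE 0.089, edgeR adjusted p = 0.0189), and the adjusted p reached 0.0548 at most when control replicate 1, control replicate 3 or exercised replicate 1 was left out, each of which ended the call. Atg2, a lipid transfer protein that acts with Atg9 and Atg18a, stood at 57.7, 61.8 and 64.5 CPM in the controls against 44.3, 54.0 and 53.5 in the exercised libraries, a log2 fold change of -0.28 that missed the threshold (adjusted p = 0.0916). Atg18b, the second WIPI gene of this list, did not pass either (-0.28, adjusted p = 0.559), though it did without exercised replicate 2 (-0.63, 0.0417).

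Atg16 joins Atg5 and Atg12 in the complex that attaches the ubiquitin-like protein Atg8a to lipid. Atg16 (FBgn0039705, minus strand, chr3R:29827281-29835101) stood at 52.7, 45.2 and 46.8 CPM in the controls against 29.7, 41.4 and 32.6 in the exercised libraries. Exercised replicate 2 was the nearest to the controls. The log2 fold change of Atg16 was -0.48 (SE 0.13, edgeR adjusted p = 0.0424), but the gene did not pass without any 1 of the libraries other than exercised replicate 2 (adjusted p up to 0.145, without exercised replicate 3).

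Atg8a (FBgn0052672, minus strand, chrX:10764878-10768338), the ubiquitin-like protein that coats the autophagosome, was by far the most abundant core transcript. It stood at 304, 257 and 299.97 CPM in the controls against 218, 267 and 245 in the exercised libraries. The groups overlapped, since exercised replicate 2 was above control replicate 2. The log2 fold change of Atg8a was -0.24 (95% interval -0.48 to 0.0041), and the gene did not pass with edgeR (adjusted p = 0.156), DESeq2 (0.188) or limma-voom (0.155). Its paralog Atg8b had 1 count in each control library and 0 in each exercised library and was too scarce to test. Of the 7 other conjugation genes that could be tested, 0 passed in edgeR and DESeq2, against 18.8% of all tested genes in edgeR. Only 1 (Atg4b) had an unadjusted p under 0.05. The 7 were Atg3, Atg4a, Atg4b, Atg5, Atg7, Atg10 and Atg12. Their log2 fold changes in edgeR ran from -0.32 (Atg7, adjusted p = 0.228) to 0.35 (Atg4b, adjusted p = 0.0508), with a median of -0.017. Atg4b, which encodes a protease that processes Atg8, stood at 14.7, 13.0 and 15.2 CPM in the controls against 19.4, 17.9 and 17.2 in the exercised libraries, without overlap. It passed as higher with RLE factors, and Atg7 passed as lower without exercised replicate 2. Atg10 and Atg12 had few counts (41 to 67 and 46 to 78 per library). Of the exonic bases, 51.4% of Atg4a are shared with CG4629 and 50.1% of Atg10 with CG12822 and Dgk. Dgk had 370, 281 and 231 counts in the controls against 981, 1013 and 1275 in the exercised libraries. Counts of CG4629 and CG12822 overlapped between the groups.

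Epg5, named after a worm gene and known in worms and mammals as a tether between autophagosome and late endosome or lysosome, was the latest-acting member. Epg5 (FBgn0038651, minus strand, chr3R:18750436-18758873) stood at 66.3, 74.6 and 70.8 CPM in the controls against 51.1, 54.1 and 56.8 in the exercised libraries. The highest exercised library was below the lowest control. Its log2 fold change was -0.39 (SE 0.080, edgeR adjusted p = 0.0150), with an adjusted p of 0.0588 without control replicate 2 and below 0.05 without any other 1 library. Of 11 fusion genes tested (SNARE proteins, small GTPases, HOPS tether subunits and an adaptor), 1 rose, 0 fell (0 also at an unadjusted p under 0.05 and in DESeq2) and 10 did not reach the threshold in edgeR, close to the 10.3% higher and 8.52% lower among all tested genes. The higher one was car, which encodes the HOPS subunit Vps33A, at 16.8, 15.5 and 16.2 CPM in the controls against 21.4, 20.6 and 20.2 in the exercised libraries (log2 fold change 0.36, SE 0.085, edgeR adjusted p = 0.0247). Leaving out control replicate 1, control replicate 2, exercised replicate 1 or exercised replicate 3 ended the call (adjusted p up to 0.0874). The most expressed of these genes per kilobase of exon, the small GTPase gene Rab7, had a log2 fold change of 0.14 (adjusted p = 0.221).

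**Figure D3:**
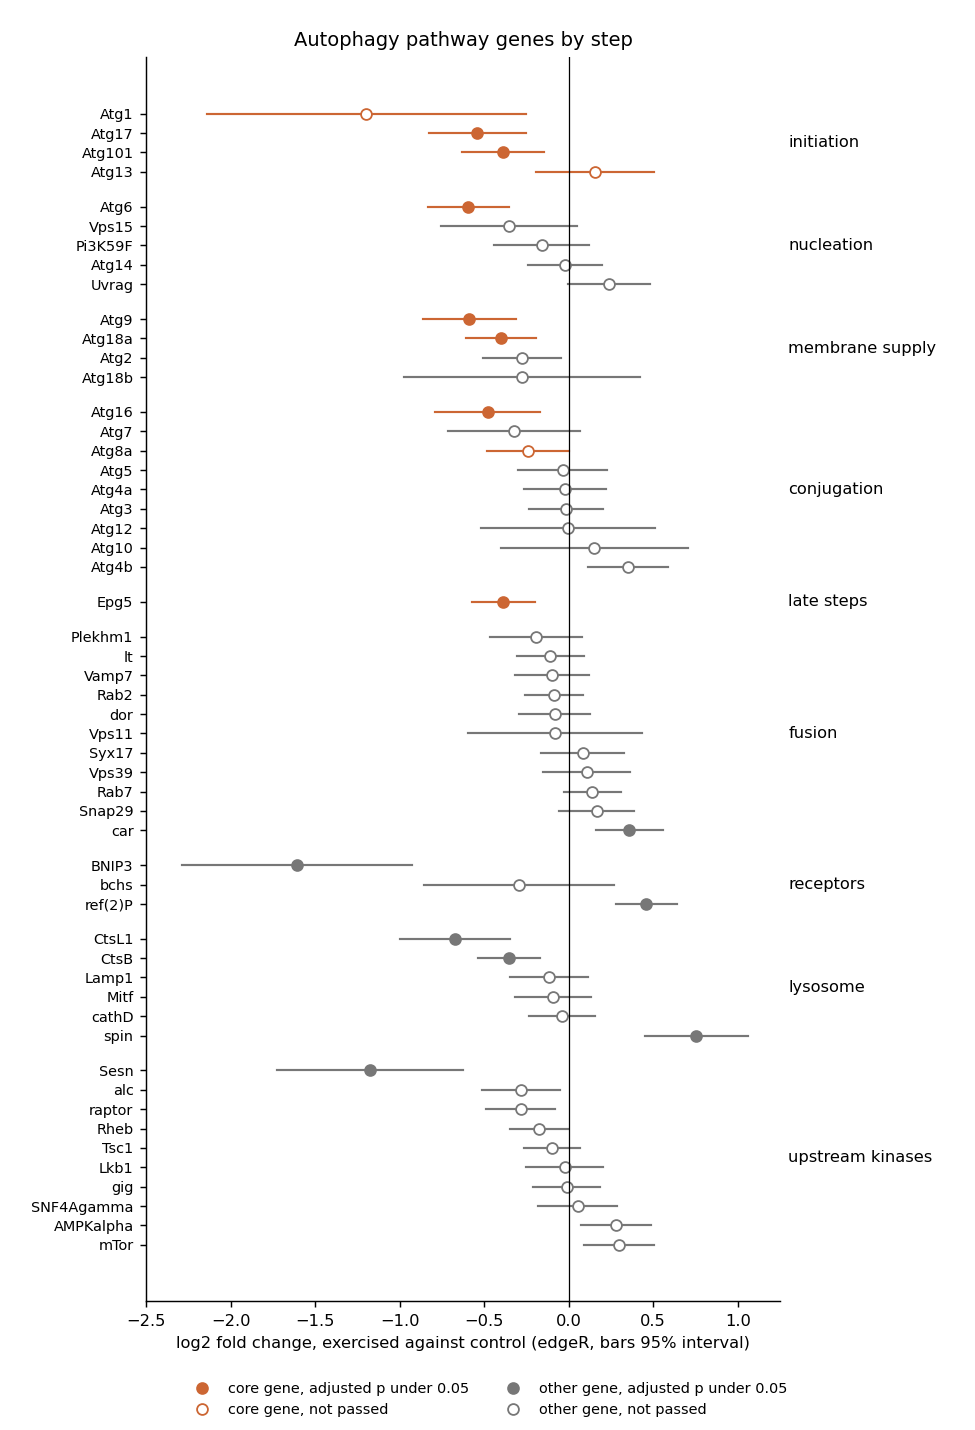
Log2 fold change of exercised against control larvae from edgeR (horizontal axis) for the 10 core genes (orange) and 43 other autophagy pathway genes (grey), grouped by step, with 95% intervals as bars. Filled points passed at an adjusted p under 0.05, and 7 core genes and BNIP3, CtsL1, CtsB and Sesn lie to the left of 0 among them, car, ref(2)P and spin to the right.

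Levels per kilobase of exon, set by the exon lengths of the annotation, placed Atg8a far above the rest in control larvae at 169 ± 15.3 CPM per kb (mean ± SD, n = 3). Atg1 (25.6 ± 4.26) and Atg9 (24.2 ± 2.34) followed with overlapping ranges, then Atg16 (18.8 ± 1.54) and Atg18a (18.0 ± 1.24), also overlapping. Below them lay Atg6 (11.4 ± 1.05), Atg17 (9.88 ± 0.832) and Epg5 (9.28 ± 0.547), neighbours whose ranges overlapped in turn, and last Atg13 (5.88 ± 0.125) and Atg101 (5.38 ± 0.120), which were apart. In exercised larvae Atg8a was again first (144 ± 14.4 CPM per kb) and Atg101 last (4.11 ± 0.216). Atg1 was then at 11.2 ± 5.44 CPM per kb, with a range from 6.23 to 17.0 that overlapped those of Atg16 above and Atg6 below it. From Atg9 down to Atg13, each of the exercised neighbours overlapped the next.

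Exercised replicate 1 held the lowest value of the 3 exercised libraries for 9 of the 10 core genes, Atg13 being the exception. Among all tested genes, 39.0% were lowest there. Exercised replicate 2 held the highest value for 5 core genes (Atg1, Atg17, Atg101, Atg16 and Atg8a), against 39.1% of all tested genes, and the lowest for Atg13. Without exercised replicate 1 the log2 fold change of Atg1 was -0.91, and the 7 called genes ranged from -0.57 for Atg6 to -0.35 for Epg5 and Atg101. With 1 library left out, 3.85 to 9.05% of all tested genes were called lower, against 8.52% with all 6 libraries.

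The summed fat body level, most of it from Lsp1alpha, Lsp1beta and apolpp, was higher in the exercised libraries than in control replicates 1 and 2, while the sum of 3670 CPM in control replicate 3 lay within the exercised range. Of the 9 markers, Fbp1 passed as higher, Ugt36D1 passed as lower and 7 did not pass, where 10.3% of all tested genes were higher and 8.52% lower. With control replicate 3 as the only control, 9 of the 10 core genes were again below control and their median log2 fold change was -0.43, while 0 passed in this edgeR fit of 4 libraries (5 at an unadjusted p under 0.05), where 2.09% of all tested genes were called lower. Atg1 was at -1.44, Atg6 at -0.72 and Atg9 at -0.42 in it. The lone control is assumed there to vary like the exercised libraries. With the summed fat body level as a covariate the median was again -0.43. Atg6 alone of the core genes passed in that fit (edgeR adjusted p = 0.0244), where 3.47% of all tested genes were called lower. The covariate was itself higher in the exercised group.

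**Figure D4:**
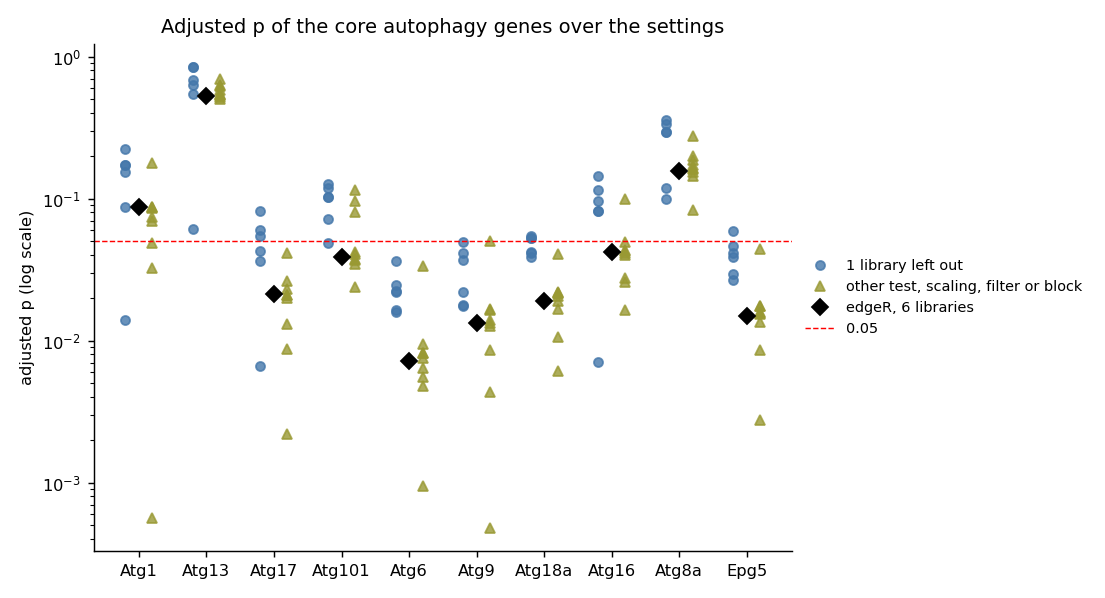
Adjusted p of each core gene (vertical axis, log scale, with 0.05 as the dashed line) from edgeR on all 6 libraries (black diamonds), with 1 library left out (blue circles) and with another test, scaling, filter or the replicate block (olive triangles). Atg6 and Atg9 stay below 0.05 with each library left out, Atg8a and Atg13 stay above it throughout, and Atg1 falls on both sides. The fits with glmTreat, with control replicate 3 as the only control and with the fat body covariate are not drawn.

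Of 3 genes for receptors and scaffolds that hand cargo to autophagy, BNIP3 was lower, ref(2)P was higher and bchs did not pass. Among all tested genes, 8.52% were lower and 10.3% higher. BNIP3, a mitochondrial outer membrane protein that recruits Atg8a to worn mitochondria, fell from 136, 107 and 136 CPM in control to 27.6, 58.3 and 38.5 CPM in exercised replicates 1 to 3. This was a log2 fold change of -1.61 (SE 0.28, edgeR adjusted p = 0.0127, 0.0594 without exercised replicate 3). The order of the exercised libraries was the same as for Atg1, with replicate 1 lowest and replicate 2 highest. ref(2)P, the fly p62, which links ubiquitinated cargo to Atg8a and is itself degraded by autophagy, stood at 285, 294 and 292 CPM in the controls against 377, 431 and 388 in the exercised libraries. It rose by 0.46 on the log2 scale (SE 0.078, edgeR adjusted p = 0.00684) and passed with each library left out in turn. Of the exonic bases of ref(2)P, 7.22% are shared with CG10337 on the other strand, which was higher too (log2 fold change 1.97, edgeR adjusted p = 0.000252), and whether reads were counted by strand was not stated. The log2 ratio of ref(2)P to Atg8a was 0.019 ± 0.15 in control and 0.71 ± 0.066 in exercised larvae (mean ± SD, n = 3, exact permutation p = 0.1, the smallest possible). ref(2)P alone already lay apart between the groups, so this ratio is not a separate result. bchs, a large scaffold for the clearance of aggregates, did not pass (-0.29, adjusted p = 0.437).

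Of 6 lysosomal genes, CtsL1 and CtsB were lower, spin was higher and 3 did not pass, where 8.52% of all tested genes were lower and 10.3% higher. The cathepsin L gene CtsL1 stood at 458, 398 and 391 CPM in the controls against 219.8, 315 and 248 in the exercised libraries. Its log2 fold change was -0.67 (SE 0.14, edgeR adjusted p = 0.0153, 0.0687 without exercised replicate 3). It shares 13.7% of its exonic bases with CG42806, which fell by 0.89 (adjusted p = 0.00208). The cathepsin B gene CtsB fell by 0.36 (SE 0.079, edgeR adjusted p = 0.0192), but did not pass without control replicate 1, exercised replicate 1 or exercised replicate 3 (up to 0.0915). spin, which encodes a lysosomal efflux permease, stood at 82.6, 79.1 and 84.9 CPM in the controls against 162, 112 and 142 in the exercised libraries, and rose by 0.76 (SE 0.13, edgeR adjusted p = 0.00757, up to 0.0413 with 1 library left out). Among the other 3, Mitf, the fly TFEB homolog and a regulator of lysosomal genes, had a log2 fold change of -0.093 (adjusted p = 0.554).

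Upstream of the complex, the kinase mTor in TORC1 inhibits Atg1 and AMPK activates it. Of 10 genes of these kinases and their regulators, Sesn was lower and 9 did not pass in edgeR, while DESeq2 also called mTor and AMPKalpha higher. Sesn encodes a sestrin, an inhibitor of TORC1, and stood at 65.8, 47.5 and 92.0 CPM in the controls against 29.8, 31.8 and 29.3 in the exercised libraries. The exercised libraries agreed closely, while the controls spread about their mean. The log2 fold change of Sesn was -1.18 (SE 0.23, edgeR adjusted p = 0.0163, up to 0.0729 without exercised replicate 1, 2 or 3), and 67.4% of its exonic bases are shared with CG46429 and mir-4979, which have no row in the count table. mTor (log2 fold change 0.30, adjusted p = 0.0570), the AMPK subunit gene AMPKalpha (0.28, 0.0652), raptor of TORC1 (-0.28, 0.0617) and the AMPK subunit gene alc (-0.28, 0.0865) did not overlap between the groups but missed the threshold, as did Rheb and Tsc1, and 39.2% of all tested genes did not overlap in one direction or the other. Rheb, the most expressed of this list per kilobase, was at -0.17 (adjusted p = 0.146). Over all 43 tested genes of the wider pathway, 3 rose, 4 fell and the remaining 36 missed the threshold, with a median log2 fold change of -0.082. These counts are near the shares of all tested genes called higher (10.3%) and lower (8.52%). The 4 lower ones became 2 without exercised replicate 1 (BNIP3 and CtsL1), 7 without exercised replicate 2, and 0 without exercised replicate 3, where 6 had an unadjusted p under 0.05.

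The 5 tested genes whose pattern over the 6 libraries was closest to that of Atg1 were Sk1, CG42369, Ugt302K1, lncRNA:CR46035 and CG7120. Closeness was the root mean square difference of log2 CPM after centring each gene, which was 0.074 for Sk1, a sphingosine kinase gene, and 0.13 to 0.16 for the other 4. Sk1 stood at 12.5, 15.9 and 18.5 CPM in the controls against 3.49, 10.3 and 5.72 in the exercised libraries and, like Atg1, did not pass (log2 fold change -1.27, edgeR adjusted p = 0.0742). Sk1 did pass with DESeq2 (adjusted p = 0.0025), limma-voom (0.0306), the replicate block (0.0428) and without exercised replicate 2 (0.00648). The other 4 passed in edgeR (adjusted p = 0.0223 to 0.0435), but not without exercised replicate 3 (0.0769 to 0.147). Of these, lncRNA:CR46035 was scarce, at 0.287 to 1.69 CPM. Closest to the mean pattern of Atg13, Atg17, Atg101 and Atg6 were HemK1, CG4239, Max, CG2794 and PIG-H, at 0.032 to 0.040. Exercised replicate 2 was lowest for Atg13 and highest for Atg17, so this mean need not be the pattern of any 1 member. HemK1 (edgeR adjusted p = 0.0748) and PIG-H (0.322, at 1.48 to 1.96 CPM) did not pass. Max, the partner of Myc, stood at 16.1, 16.3 and 16.8 CPM in the controls against 12.1, 12.1 and 13.3 in the exercised libraries (log2 fold change -0.39, edgeR adjusted p = 0.0221, but 0.0503 to 0.0711 with 1 library left out). With 6 libraries in 2 groups, such likeness rests largely on the difference between the groups.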

How the data were processed

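Raw read counts per gene, as deposited, were used. The authors made these counts with featureCounts from single-end reads, after quality control in FastQC and STAR alignment to genome release 6, library by library. Their tool versions, annotation release, strand setting and treatment of multi-mapped reads were not given in the sources used here. Symbols, positions and exon lengths came from the Ensembl annotation of the same release (17200 of 17477 identifiers, and 4.09% of counts lay on the others). Vps16A and S6k had no matching identifier and were not analysed here.

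In R 4.3.3, genes kept by filterByExpr of edgeR 4.0.16 were scaled by TMM and tested with glmQLFit (robust=TRUE) and glmQLFTest, with Benjamini-Hochberg adjustment over 9127 genes. CPM per kb divides by exonic length. Ratios were tested by exact permutation (SciPy 1.17.1). Library totals were 19625425 to 23953341 counts, and the coefficient of variation between replicates was 0.181. In simulated data of 9127 genes for exercised against control, the edgeR step recovered 16.4% of genes changed 1.5-fold, 79.1% at 2-fold and 98.5% at 4-fold. There 200 genes were changed, and every gene had the same variation between replicates.

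Alternatives were DESeq2 1.42.0, limma-voom (limma 3.58.1), RLE and upper-quartile factors, other low-count filters, robust=FALSE, a replicate block, each library left out, control replicate 3 as the only control and glmTreat. Leaving out the 20 most abundant genes and a fat body covariate were added after the data were seen. Members, lists and tests were chosen with earlier results of these data known. Named were all core genes, each pathway gene that passed, the most expressed gene per kilobase of each list and the 5 genes nearest in pattern, other genes being named after their values were seen. Libraries of a group differed by more than sampling noise, so none was counted as a duplicate. The labels call the libraries replicates and the study calls them independent biological replicates.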

Additional observations from a re-analysis of the deposited data

How the results depend on the processing

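The direction of the core genes was the same in all 18 alternatives: 9 were below control and none passed as higher, and their median log2 fold change lay between -0.51 and -0.37. The alternatives reuse the same libraries and are not independent, and robust=FALSE and glmTreat leave the log2 fold changes unchanged. Of 180 single values of core genes, 134 kept their direction and side of the threshold, 42 no longer passed, 4 newly passed and none changed direction. With 1 library left out, the core genes called lower numbered 3 to 8, all genes called higher 469 to 934 and lower 358 to 847, and the wider pathway genes called higher 2 to 4 and lower 0 to 7. With the replicate block, 4 core genes were lower (Atg17, Atg6, Atg18a and Epg5), and 599 genes were higher and 465 lower in all. Deviations from the group mean correlated at -0.24 to 0.0029 between same-numbered libraries and at -0.0098 to 0.29 between the others. With 3 libraries per group, whether same-numbered libraries share a batch cannot be told from this. With control replicate 3 as the only control, 0 core genes passed in edgeR (5 at an unadjusted p under 0.05), 222 of all genes were higher and 199 lower, and the wider pathway genes numbered 0 higher (4 at an unadjusted p under 0.05) and 1 lower. Against a 1.5-fold change (glmTreat), 251 of all genes were higher and 128 lower, with 0 core genes lower (1 at an unadjusted p under 0.05) and 0 wider pathway genes higher (1) or lower (2). With the fat body covariate, 324 genes were higher and 317 lower in all, 1 core gene was lower, and the wider pathway genes numbered 0 higher (4 at an unadjusted p under 0.05) and 1 lower. DESeq2 called 5 wider pathway genes higher (with mTor and AMPKalpha), as did edgeR without the 20 most abundant genes (with Atg4b and mTor), and upper-quartile factors called 7 lower (with Atg2, raptor and alc). Upper-quartile factors turned the split of all calls from 54.6% higher to 43.5% higher. The causes were not tested. In the simulation 16.4% of genes changed 1.5-fold were recovered at this depth. It changed 200 genes and gave every gene the same variation, while 1714 genes passed in the data. That share therefore need not hold for the core genes, which all but Atg1 differed by about 1.5-fold or less.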

Other observations

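The exercised libraries ordered the wider autophagy genes unevenly. Exercised replicate 1 was lowest and exercised replicate 2 highest for 24 of the 43 tested wider pathway genes (55.8%) and for 5 of the 10 core genes, against 26.3% of all tested genes. The exercised libraries held 19.6, 39.6 and 29.2 CPM of bchs, in the order of replicates 1, 2 and 3, against 34.9 to 37.3 CPM in control. For Atg18b they held 17.7, 39.9 and 25.5 CPM, against 30.4 to 36.3 CPM in control. For both, exercised replicate 2 was above every control library and the other 2 exercised libraries were below. spin had the reverse order, as had Atg13.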
